A study of Homo sapiens with 9 samples.

Results

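The genes described here are THBS1 and 9 genes of the YAP-TEAD pathway, measured by RNA sequencing in H1299 cells in which FIBP had been silenced. The 10 genes were CCN1, CCN2, ANKRD1, AMOTL2 and AXL, which are transcribed under YAP and TEAD in many cell types, YAP1 and WWTR1, which encode the coactivators YAP and TAZ, TEAD1 and TEAD4, which encode their DNA-binding partners, and THBS1 itself. They were 10 of the 60966 genes in the tables. THBS1 was selected on its measured fall against Scramble with both siRNAs, so its values against Scramble are a description with no test. The other 9 genes were chosen by name with earlier results of these data known, so counts over them describe these genes and are not independent evidence of a direction.

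H1299 is a human cell line derived from a non-small cell lung cancer, of epithelial origin. The cells of 3 samples were transfected with a scrambled control siRNA (Scramble). The other 6 samples received Si-FIBP#1 or Si-FIBP#2, 3 each, which are 2 siRNAs against FIBP, the intracellular binding protein of acidic fibroblast growth factor. All 9 samples were therefore transfected cells of 1 line, and no untransfected cells were analysed here. The labels give no time of harvest, and the methods of the study name a single time after transfection for all groups. Those methods say in general that experiments were repeated independently, but neither they nor the labels say that the sequenced replicates were separate cultures, so the p-values may measure only technical spread between these samples.

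YAP and TAZ shuttle between cytoplasm and nucleus. When the Hippo kinases MST and LATS are active, LATS phosphorylates YAP and TAZ, which are then held in the cytoplasm or degraded. When the kinases are quiet, as in spread cells on a stiff matrix, YAP and TAZ enter the nucleus, bind TEAD proteins and switch on genes for matrix, adhesion and growth. THBS1 encodes thrombospondin-1, a secreted matrix glycoprotein that binds CD47, integrins and syndecans and can activate latent TGF-beta.

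The deposited values were FPKM, that is fragments relative to the length of the transcript and the size of the library, so levels of different genes are set side by side per length. The tables hold no counts. From the steps between low FPKM values the libraries were estimated at 20200000 to 24100000 fragments. In all 9 samples KRT8, KRT18 and VIM, which H1299 expresses, were at 67.15 FPKM or more, but all 3 were lower with both siRNAs. KRT18 was at 43.8% of the Scramble mean after Si-FIBP#1 and 36.7% after Si-FIBP#2, VIM at 71.4% and 61.5%, and KRT8 at 68.8% and 71.2%. Of the 8 markers of other cells, PTPRC, CD3E, PECAM1, VWF, COL3A1 and SFTPC were at 0.27 FPKM or less, COL1A1 reached 1.59 FPKM, and CD68 lay between 31.0 and 66.96 FPKM. The 8 markers summed to 31.43 to 33.11 FPKM in Scramble, 38.82 to 41.09 FPKM after Si-FIBP#1 and 51.84 to 68.26 FPKM after Si-FIBP#2, nearly all of it CD68, since without it the highest sum was 1.88 FPKM. The part of these markers in the results below was not tested. The 10 most abundant genes held 11.4% to 11.6% of the FPKM in Scramble, 14.9% to 15.1% after Si-FIBP#1 and 12.9% to 13.4% after Si-FIBP#2. Si-FIBP#2 replicate 2 stood apart from its group. Its log2 values correlated across genes with those of the other 2 Si-FIBP#2 samples at 0.9836 at most, while those 2 correlated at 0.9876 with each other, and along the axis from the Si-FIBP#1 mean to the other Si-FIBP#2 samples it lay at 56.7% of the way, against 77.2% and 80.1%. For the 10 genes, differences between the siRNAs that passed the test are given with and without it. In bulk RNA, fewer cells of a kind and less RNA per cell cannot be told apart.

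FIBP, the targeted gene, was at 88.38, 79.49 and 77.74 FPKM in Scramble. It was at 7.49, 7.77 and 4.30 FPKM after Si-FIBP#1 and at 7.13, 5.92 and 8.21 FPKM after Si-FIBP#2. Both siRNAs thus left under 10% of the Scramble mean (7.96% and 8.66%), and the 2 siRNA groups did not pass the test against each other (log2 difference 0.13, 95% interval -0.28 to 0.54, limma adjusted p = 0.686).

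THBS1 (ENSG00000137801, chromosome 15, 39581079 to 39599466, plus strand, GRCh38) was lower with both siRNAs and lowest after Si-FIBP#2. In Scramble it was at 33.85, 31.78 and 29.86 FPKM. After Si-FIBP#1 it was at 12.04, 9.02 and 8.77 FPKM, and after Si-FIBP#2 at 3.56, 2.48 and 2.20 FPKM. The 3 groups did not overlap, with the highest Si-FIBP#2 sample below the lowest Si-FIBP#1 sample. The means were 31.8 ± 2.0, 9.94 ± 1.82 and 2.75 ± 0.718 FPKM (SD, n = 3), or 31.2% of Scramble after Si-FIBP#1 and 8.63% after Si-FIBP#2. On the scale of log2(FPKM + 1), which understates the change of low genes, the differences from Scramble were -1.60 and -3.15. Ranked by the smaller of its 2 falls, THBS1 stood at 18 among the 14985 genes tested, between SPAG5, a mitotic spindle gene (rank 17, smaller fall -1.60), and E2F2, a cell cycle transcription factor (rank 19, -1.56).

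The difference in THBS1 between the 2 siRNAs was not what the gene was selected on, and it was tested. The siRNA values tested here also entered that selection, so the test is not independent of it. THBS1 was lower after Si-FIBP#2 than after Si-FIBP#1 by 1.55 on the log2 scale (log2 difference -1.55, standard error 0.15, 95% interval -1.88 to -1.22, limma on all genes tested, Benjamini-Hochberg adjusted p = 0.000362). Without Si-FIBP#2 replicate 2 the difference was -1.51. It exceeded 2-fold with an adjusted p below 0.05, as 0.294% of all genes tested did in that direction (0.267% in the other), and THBS1 was 1 of 10 genes described here to do so.

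The full-length THBS1 mRNA carried most of the signal. ENST00000260356, of 7789 nucleotides, was at 29.3 ± 1.84 FPKM in Scramble (SD, n = 3), 8.85 ± 1.51 FPKM after Si-FIBP#1 and 2.04 ± 0.276 FPKM after Si-FIBP#2. This was 92.0%, 89.0% and 74.2% of the gene's summed FPKM, with the rest spread over 7 short transcripts of 431 to 1291 nucleotides. FSIP1 overlaps THBS1 on the other strand and lay between 3.23 and 5.8 FPKM. Use of strand in the quantification is not given in the sources used here, and without strand the reads of an overlapping stretch cannot be assigned. The estimated number of fragments behind THBS1 ranged from 302 to 5109 per sample.

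**Figure D1:**
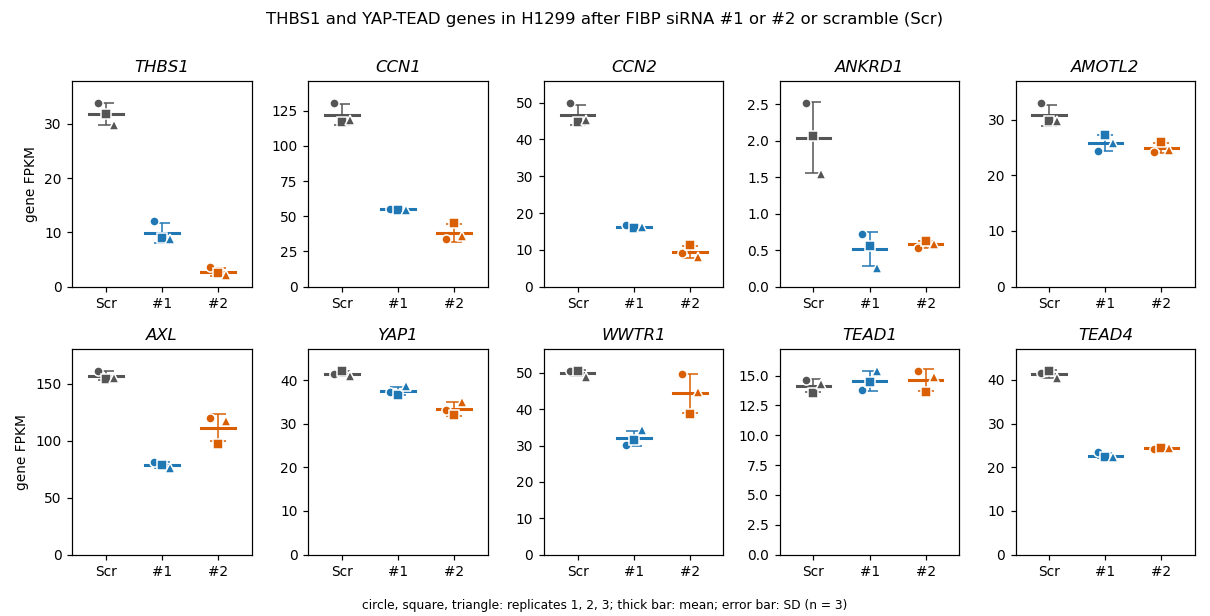
Gene FPKM (vertical axes, from 0) of THBS1 and the 9 YAP-TEAD genes in the 9 samples, by group (Scr, Scramble; #1, Si-FIBP#1; #2, Si-FIBP#2), with the mean and SD of 3 samples. Apart from THBS1, selected on its fall, and ANKRD1, which passed the filter on low values through Scramble alone, the 6 siRNA samples lie below the 3 Scramble samples for 6 of 8 genes (16.5% of all genes tested), and the groups overlap for WWTR1 and TEAD1.

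CCN1 and CCN2, both secreted matricellular proteins and common readouts of YAP-TEAD activity, fell with both siRNAs. CCN1 (formerly CYR61, ENSG00000142871, chromosome 1, 85580761 to 85583962, plus strand) was at 130.47, 117.20 and 118.33 FPKM in Scramble, at 55.43, 54.60 and 54.57 FPKM after Si-FIBP#1, and at 33.60, 45.31 and 35.82 FPKM after Si-FIBP#2. CCN2 (formerly CTGF, ENSG00000118523, chromosome 6, 131948176 to 131951373, minus strand) was at 49.91, 44.75 and 45.25 FPKM in Scramble, at 16.61, 15.83 and 16.10 FPKM after Si-FIBP#1, and at 9.16, 11.25 and 7.99 FPKM after Si-FIBP#2. For both genes the 3 groups were apart, and Si-FIBP#2 replicate 2 was the highest of its group. CCN1 was left at 45.0% of Scramble after Si-FIBP#1 (log2 difference -1.14, limma adjusted p = 1.54e-05) and at 31.3% after Si-FIBP#2 (-1.66, adjusted p = 2.15e-06). CCN2 was left at 34.7% (-1.47, adjusted p = 4.83e-06) and at 20.3% (-2.20, adjusted p = 8.21e-07).

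Like THBS1, both were lower after Si-FIBP#2 than after Si-FIBP#1. The log2 difference was -0.52 for CCN1 (95% interval -0.74 to -0.30, limma adjusted p = 0.0077) and -0.73 for CCN2 (-0.96 to -0.49, adjusted p = 0.00235). Without Si-FIBP#2 replicate 2 these were -0.65 and -0.85.

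ANKRD1 (ENSG00000148677, chromosome 10, 90912096 to 90921276, minus strand), a nuclear ankyrin repeat protein that is induced by stretch, was a low gene here. It was at 2.52, 2.07 and 1.54 FPKM in Scramble, at 0.72, 0.56 and 0.26 FPKM after Si-FIBP#1, and at 0.53, 0.63 and 0.58 FPKM after Si-FIBP#2. An estimated 8 to 81 fragments per sample lay behind these values. All 6 siRNA samples were below 1 FPKM, so ANKRD1 passed the filter on low values (1 FPKM in 3 samples) through Scramble alone and had to differ. Its mean was 25.1% and 28.4% of Scramble, and its log2 differences of -1.01 and -0.93 (-1.86 and -1.63 with a pseudocount of 0.1) are given as a description.

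AMOTL2 (ENSG00000114019, chromosome 3, 134355874 to 134375479, minus strand), a scaffold that binds YAP and holds it back and is itself a YAP target, fell least of the 4 targets tested (CCN1, CCN2, AMOTL2 and AXL). It was at 32.99, 29.78 and 29.67 FPKM in Scramble, at 24.36, 27.19 and 25.87 FPKM after Si-FIBP#1, and at 24.22, 25.89 and 24.47 FPKM after Si-FIBP#2. The 2 siRNA groups overlapped each other and lay below Scramble. The log2 differences were -0.25 (limma adjusted p = 0.0118) and -0.30 (adjusted p = 0.00441), or 83.8% and 80.7% of Scramble.

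AXL (ENSG00000167601, chromosome 19, 41219203 to 41261766, plus strand), a receptor tyrosine kinase for GAS6, was the most abundant of the 10 genes per length and fell more after Si-FIBP#1 than after Si-FIBP#2. It was at 161.51, 154.80 and 155.69 FPKM in Scramble, at 81.09, 78.84 and 75.75 FPKM after Si-FIBP#1, and at 119.78, 97.63 and 117.69 FPKM after Si-FIBP#2. The 3 groups were apart and Si-FIBP#2 was in the middle, which is the opposite order to that of THBS1, CCN1 and CCN2. The log2 difference was -0.99 after Si-FIBP#1 (limma adjusted p = 6.74e-06), -0.50 after Si-FIBP#2 (adjusted p = 0.000476) and 0.50 between Si-FIBP#2 and Si-FIBP#1 (95% interval 0.33 to 0.66, adjusted p = 0.00284). Without Si-FIBP#2 replicate 2 the last was 0.59. AXL after Si-FIBP#1 was just short of 2-fold and passed it with a pseudocount of 0.1, as TPM (-1.04), by the median ratio (-1.05), with Ensembl transcripts only (-1.01) and without Scramble replicate 2 (-1.0047), Scramble replicate 3 (-1.0005) or Si-FIBP#1 replicate 1 (-1.02).

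The AXL transcripts did not change alike. ENST00000359092 (3206 nucleotides) was at 57.6 ± 4.34 FPKM in Scramble (SD, n = 3) and at 20.7 ± 2.15 and 24.9 ± 2.36 FPKM with the 2 siRNAs, which took it from 36.6% of the gene to 26.3% and 22.3%. ENST00000301178 (4717 nucleotides) went from 66.1 ± 1.66 to 35.8 ± 3.23 and 57.7 ± 9.16 FPKM, and its share from 42.0% to 45.6% and 51.6%. Shares of transcripts that overlap rest on how the quantification split their reads, and no test was run on them.

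**Figure D2:**
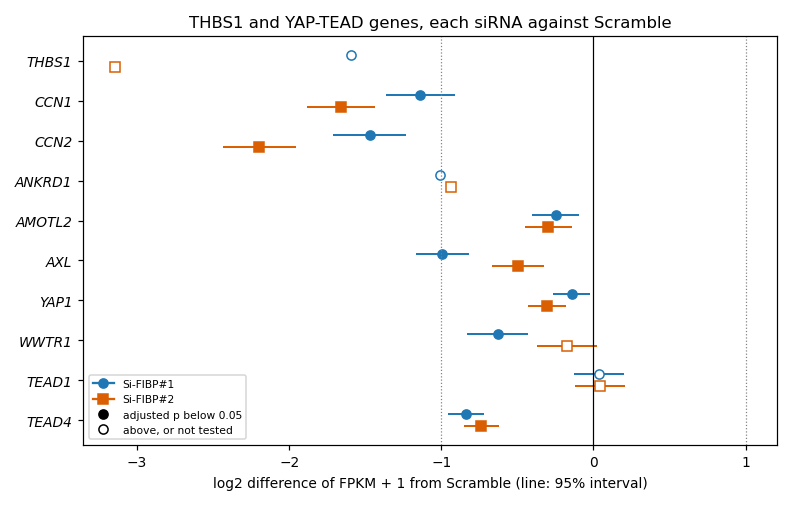
Difference from Scramble on the scale of log2(FPKM + 1) for each gene (horizontal axis; lines, 95% intervals; dotted lines, 2-fold) after Si-FIBP#1 (circles) and Si-FIBP#2 (squares), where filled symbols have an adjusted p below 0.05. THBS1, selected on its fall, and ANKRD1, which passed the filter through Scramble alone, are shown open and without an interval. THBS1 lies farthest to the left with both siRNAs (-1.60 and -3.15), while both TEAD1 intervals cross 0.

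Among the genes for the pathway's own transcription factors, TEAD4 (ENSG00000197905, chromosome 12, 2959330 to 3040673, plus strand) fell most. It was at 41.52, 42.08 and 40.43 FPKM in Scramble, at 23.39, 22.27 and 22.42 FPKM after Si-FIBP#1, and at 24.28, 24.44 and 24.51 FPKM after Si-FIBP#2. The log2 differences were -0.84 (limma adjusted p = 1.75e-06) and -0.74 (adjusted p = 4.15e-06), and the 2 siRNAs differed by 0.10 (95% interval -0.01 to 0.21, adjusted p = 0.204).

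TEAD1 (ENSG00000187079, chromosome 11, 12674591 to 12944483, plus strand) showed no change that these samples could detect. It was at 14.60, 13.57 and 14.30 FPKM in Scramble, at 13.75, 14.47 and 15.39 FPKM after Si-FIBP#1, and at 15.34, 13.62 and 14.91 FPKM after Si-FIBP#2, so that all 3 groups overlapped. The log2 difference was 0.035 after Si-FIBP#1 (95% interval -0.12 to 0.19, limma adjusted p = 0.712) and 0.043 after Si-FIBP#2 (-0.12 to 0.20, adjusted p = 0.648), and its sign turned under other scalings.

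YAP1 (ENSG00000137693, chromosome 11, 102110461 to 102233423, plus strand) was slightly lower with both siRNAs. It was at 41.42, 42.11 and 40.93 FPKM in Scramble, at 37.22, 36.64 and 38.59 FPKM after Si-FIBP#1, and at 33.15, 32.01 and 34.97 FPKM after Si-FIBP#2, and the 3 groups did not overlap. Between Si-FIBP#2 and Si-FIBP#1, YAP1 differed by -0.16 and did not pass the test (limma adjusted p = 0.063). That adjusted p was above 0.05 under 16 of 17 alternatives. The log2 difference after Si-FIBP#2 was -0.31 (limma adjusted p = 0.00102), or -0.19 with Ensembl transcripts only. After Si-FIBP#1 it was -0.14 (adjusted p = 0.0457), and this call was lost under 9 of the 17 alternatives run, which gave adjusted p of 0.0136 to 0.136. Among these were Ensembl transcripts only and leaving out any 1 of Scramble replicates 1, 2 and 3, Si-FIBP#1 replicates 1, 2 and 3 and Si-FIBP#2 replicate 1.

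WWTR1 (ENSG00000018408, chromosome 3, 149517235 to 149736714, minus strand), the gene of TAZ, fell after Si-FIBP#1. It was at 50.45, 50.55 and 48.92 FPKM in Scramble and at 30.13, 31.65 and 34.19 FPKM after Si-FIBP#1, with no overlap (log2 difference -0.63, limma adjusted p = 0.000273). After Si-FIBP#2 it was at 49.57, 38.73 and 44.77 FPKM, and the highest of these samples lay within the Scramble range. That difference did not pass the test (-0.18, 95% interval -0.37 to 0.02, adjusted p = 0.117), although it passed after scaling by the median ratio (-0.27, adjusted p = 0.0326) and without Si-FIBP#2 replicate 1 (-0.26, adjusted p = 0.0269). Over all 17 alternatives its adjusted p was 0.0269 to 0.341. WWTR1 was higher after Si-FIBP#2 than after Si-FIBP#1 by 0.45 (limma adjusted p = 0.00796), or by 0.55 without Si-FIBP#2 replicate 2. Its antisense neighbour WWTR1-AS1 lay between 0.86 and 2.26 FPKM.

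In Scramble, the order of mean FPKM was AXL (157.3), CCN1 (122.0), WWTR1 (50.0), CCN2 (46.6), YAP1 (41.5), TEAD4 (41.3), THBS1 (31.8), AMOTL2 (30.8), TEAD1 (14.2) and ANKRD1 (2.04). The ranges of WWTR1 and CCN2, of YAP1 and TEAD4, and of THBS1 and AMOTL2 overlapped, so these neighbours were not ordered. After Si-FIBP#2, THBS1 at 2.75 FPKM lay below every one of the 10 genes except ANKRD1.

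Counted together and without THBS1 and ANKRD1, 7 of the other 8 genes were lower at an adjusted p below 0.05 after Si-FIBP#1 and 6 of 8 after Si-FIBP#2, and 0 were higher. Over all 14985 genes tested, 19.9% were lower and 27.8% higher after Si-FIBP#1 at this limit, and 17.7% were lower and 31.1% higher after Si-FIBP#2. The 7 genes after Si-FIBP#1 include YAP1 (limma adjusted p = 0.0457), whose call was lost under 9 of 17 alternatives. Past 2-fold as well, CCN1 and CCN2 were called lower with each siRNA, beside 3.11% of all genes lower (2.55% higher) after Si-FIBP#1 and 2.13% lower (2.92% higher) after Si-FIBP#2. The median log2 difference of the 8 genes was -0.73 and -0.40, against 0.073 and 0.11 over all genes tested. Scaling by the median ratio brought the last 2 to 0.023 and 0.027, and with it the calls after Si-FIBP#2 went from 438 higher and 319 lower to 345 higher and 417 lower. All 6 siRNA samples were below all 3 Scramble samples for 6 of these 8 genes, beside 16.5% of all genes tested (26.3% had all 6 above). Between the siRNAs, AXL and WWTR1 were higher and CCN1 and CCN2 lower after Si-FIBP#2, or 2 and 2 of the 8, where 9.58% of all genes tested were higher and 5.8% lower. The comparisons with Scramble share the same 3 control samples.

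The promoters of these genes were read for the short motif that TEAD proteins bind. Of the 10 genes, 7 had an entry among the RefSeq promoters (GRCh38.p14), and CCN1, TEAD1 and TEAD4 did not. In the 250 bases before the start site, GGAATG on either strand was present in 4 of the 7, THBS1, CCN2, ANKRD1 and YAP1, and in 11.9% of all 35116 promoter windows of this length (9.67% of those of tested genes). The 30 bases around each match are printed 5′ to 3′ on the gene's own strand, with the motif in capitals, because these are the genes whose promoters share it. The THBS1 match begins 46 bases before the start site (chr15:39581021-39581050, plus strand), the CCN2 matches 169, 104 and 95 bases before it (chr6:131951524-131951553 and chr6:131951459-131951488, minus strand), the ANKRD1 matches 220 and 128 bases before it (chr10:90921290-90921319 and chr10:90921198-90921227, minus strand) and the YAP1 match 162 bases before it (chr11:102110273-102110302, plus strand).
THBS1: gaggaatccccaGGAATGcgagcgcccctt
CCN2, upstream match: ttttcagacggaGGAATGctgagtgtcaag
CCN2, downstream pair: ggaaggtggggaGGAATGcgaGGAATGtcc
ANKRD1, upstream match: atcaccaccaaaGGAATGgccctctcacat
ANKRD1, downstream match: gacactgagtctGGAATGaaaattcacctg
YAP1: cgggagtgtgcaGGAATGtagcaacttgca
The downstream pair of CCN2 begins 104 and 95 bases before its start site. GENCODE 29 starts ANKRD1 upstream of the RefSeq start, at 90921276, so that its downstream match lies inside the annotated gene. The window of WWTR1 lay wholly inside its gene, with a RefSeq start 33441 bases downstream of the GENCODE start, and does not describe the sequence before that start. The windows of AMOTL2 and AXL overlapped their genes by 62 and 20 bases. The AP-1 motif TGANTCA was present in ANKRD1 and in 6.57% of all windows, the STAT motif TTCNNNGAA in THBS1 and in 6.57%, and the CArG box of SRF in none of the 7 and in 1.16%. The AP-1 pattern allowed any base at its centre, where the usual consensus has C or G, and the ANKRD1 match has T there. No match of one motif overlapped that of another in these 7 windows. A match is a description of letters. The windows of AMOTL2, AXL and WWTR1 held none of the 4 motifs, but RefSeq lists a second start for each of these genes, of which the first was read, and the windows of the second starts of AMOTL2 and AXL, both inside the gene, held 1 GGAATG each.

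A signature of 22 genes that follow YAP and TAZ in many tumours was counted next. It holds 5 of the 10 genes above (CCN1, CCN2, ANKRD1, AMOTL2 and AXL). Of the 17 others, 16 were tested, and IGFBP3, which binds insulin-like growth factors, passed the filter through Scramble alone (1.14, 1.35 and 1.06 FPKM in Scramble and 0.13 FPKM at most with the siRNAs). Of the remaining 15 genes, 5 were lower and 1 higher after Si-FIBP#1 at an adjusted p below 0.05, and 5 were lower and 2 higher after Si-FIBP#2. Their median log2 difference was -0.04 after Si-FIBP#1 and -0.15 after Si-FIBP#2. Of all genes tested, 19.9% were lower and 27.8% higher after Si-FIBP#1, and 17.7% were lower and 31.1% higher after Si-FIBP#2. F3, among the 15, was at 0.89 FPKM at most in Scramble, so it reached the filter through siRNA samples alone. It was not among the genes counted as lower or higher (log2 differences 0.40 and 0.51, limma adjusted p = 0.133 and 0.0631).

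ASAP1, a GTPase-activating protein of focal adhesions, was the 1 gene of these 15 past 2-fold, where 3.11% of all genes tested were lower at that limit after Si-FIBP#1 and 2.13% after Si-FIBP#2. It was at 37.01, 34.42 and 35.62 FPKM in Scramble, at 17.84, 14.89 and 15.13 FPKM after Si-FIBP#1, and at 12.56, 11.20 and 11.60 FPKM after Si-FIBP#2, with no overlap between the groups. The log2 differences were -1.12 (limma adjusted p = 5.15e-06) and -1.52 (adjusted p = 1.27e-06). NT5E, which encodes the surface enzyme CD73, was the gene of the list that was higher at an adjusted p below 0.05 with both siRNAs. It was at 287.47, 282.40 and 287.18 FPKM in Scramble, at 350.08, 387.80 and 400.61 FPKM after Si-FIBP#1, and at 583.92, 457.42 and 587.48 FPKM after Si-FIBP#2 (log2 differences 0.41 and 0.91, limma adjusted p = 0.00507 and 4.37e-05). Without Si-FIBP#2 replicate 2 the second was 1.03, and NT5E was then past 2-fold as well. NT5E lies outside the rule for naming genes and was named after its values were seen.

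**Figure D3:**
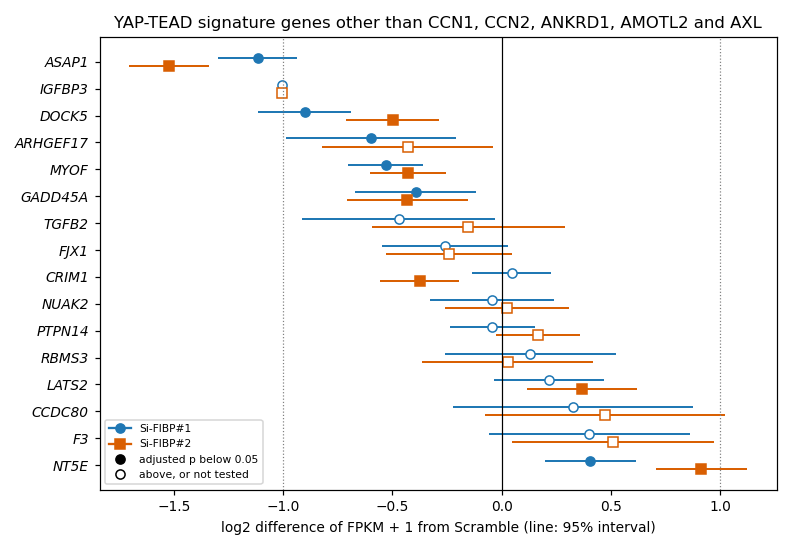
Difference from Scramble on the scale of log2(FPKM + 1) for the 16 tested signature genes other than those already shown (horizontal axis; lines, 95% intervals; dotted lines, 2-fold; filled symbols, adjusted p below 0.05), ordered by the mean of both siRNAs, with IGFBP3 open because it passed the filter through Scramble alone. ASAP1 is at the low end (-1.12 and -1.52) and NT5E at the high end (0.41 and 0.91).

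The Hippo kinases and their regulators were counted together with TEAD2, TEAD3 and the TEAD cofactor VGLL4, and the list moved both ways. VGLL4 was among the genes higher with both siRNAs, while TEAD2 and TEAD3 did not pass the test with either. The list shares AMOTL2, LATS2 and PTPN14 with the signature. Of 22 genes, all tested, 9 were lower and 4 higher after Si-FIBP#1 at an adjusted p below 0.05, where 19.9% of all genes tested were lower and 27.8% higher. After Si-FIBP#2, 8 were lower and 8 higher, where 17.7% of all genes tested were lower and 31.1% higher. The median log2 difference was -0.09 and 0.08. RASSF1, a scaffold that activates MST kinases, was the 1 gene of the 22 past 2-fold, after Si-FIBP#1, where 3.11% of all genes tested were lower at that limit. Without Si-FIBP#1 replicate 1 its difference was -0.99, short of 2-fold. It was at 13.40, 11.96 and 11.48 FPKM in Scramble, at 4.73, 6.17 and 5.22 FPKM after Si-FIBP#1, and at 7.68, 7.92 and 8.14 FPKM after Si-FIBP#2 (log2 differences -1.06 and -0.57, limma adjusted p = 2.25e-05 and 0.000983). AMOTL1, a relative of AMOTL2, fell by 0.53 and 0.63 on the log2 scale (adjusted p = 0.001 and 0.000386). NF2, which encodes the membrane scaffold merlin, fell by 0.48 and 0.64 (limma adjusted p = 0.00292 and 0.000575). TAOK2, a kinase upstream of MST, rose by 0.42 and 0.50 (limma adjusted p = 0.000832 and 0.000287), or by 0.77 and 0.82 with Ensembl transcripts only.

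**Figure D4:**
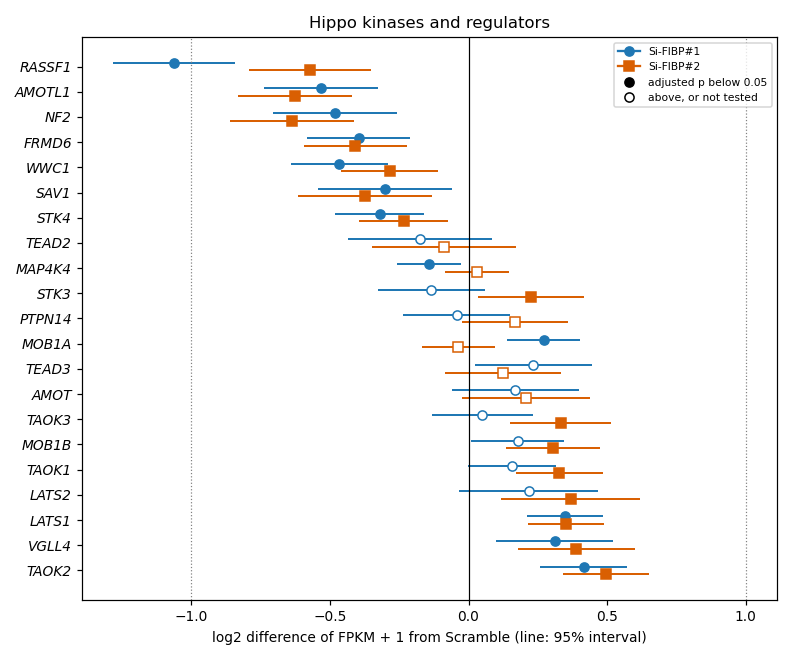
Difference from Scramble on the scale of log2(FPKM + 1) (horizontal axis) for 21 genes, ordered by the mean of both siRNAs. They are Hippo kinases and regulators with TEAD2, TEAD3 and VGLL4, AMOTL2 being shown above. Lines are 95% intervals, dotted lines mark 2-fold and filled symbols have an adjusted p below 0.05. RASSF1 after Si-FIBP#1 (-1.06, or -0.99 without Si-FIBP#1 replicate 1) is the 1 symbol beyond 2-fold, and filled symbols lie on both sides of 0.

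The thrombospondin family and the receptors of THBS1 were counted in the same way. Of 16 genes 13 were tested, and with each siRNA 6 were higher and 4 lower at an adjusted p below 0.05, with a median of 0.26 and 0.21. Over all genes tested, 27.8% were higher and 19.9% lower after Si-FIBP#1, and 31.1% higher and 17.7% lower after Si-FIBP#2. One of the 4 lower after Si-FIBP#2 was ITGB1, whose call did not hold under most alternatives. One of the 6 higher after Si-FIBP#2 was ITGB3. It lay at 0.91 to 1.14 FPKM in Scramble, 0.6 to 0.8 FPKM after Si-FIBP#1 and 1.74 to 2.49 FPKM after Si-FIBP#2. ITGB3 thus passed the filter on low values only with the samples of the group where it was high, and its call is a description. CD47, the receptor for the C-terminal end of THBS1, rose while THBS1 was lower. It was at 28.08, 30.75 and 31.18 FPKM in Scramble, at 43.99, 49.95 and 56.25 FPKM after Si-FIBP#1, and at 60.68, 57.03 and 58.89 FPKM after Si-FIBP#2 (log2 differences 0.71 and 0.95, limma adjusted p = 0.000117 and 2.17e-05). With Ensembl transcripts only the second was 1.31, past 2-fold. SDC4, a heparan sulphate proteoglycan of focal adhesions, fell from 60.08, 61.92 and 64.47 FPKM in Scramble to 26.36, 26.28 and 29.48 FPKM after the first siRNA and 24.73, 23.57 and 22.21 FPKM after the second (-1.16 and -1.37, limma adjusted p = 1.36e-06 and 9.03e-07). ITGA4, an integrin chain that binds fibronectin, VCAM1 and thrombospondin, fell from 14.59, 15.17 and 15.21 FPKM in Scramble to 7.71, 5.89 and 7.93 FPKM and to 7.0, 5.17 and 7.14 FPKM in the same order (-0.98 and -1.12, limma adjusted p = 0.000234 and 0.000107).

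THBS4, another thrombospondin, was low and rose. It was at 1.84, 1.33 and 1.83 FPKM in Scramble, at 3.18, 3.63 and 2.95 FPKM after Si-FIBP#1, and at 3.91, 3.55 and 3.89 FPKM after Si-FIBP#2 (log2 differences 0.68 and 0.85, limma adjusted p = 0.00108 and 0.000282). With Ensembl transcripts only, the first was 0.16 (adjusted p = 0.603, the highest of 16 alternatives, whose lowest was 0.00103). THBS2, COMP and CD36 did not reach the filter on low values. ITGB1, the shared beta chain of many integrins, was named after its values were seen, because Si-FIBP#2 replicate 2 stood apart in it. It was at 342.39, 355.14 and 362.46 FPKM in Scramble, at 460.78, 567.44 and 612.85 FPKM after Si-FIBP#1, and at 143.84, 370.78 and 142.82 FPKM after Si-FIBP#2, where replicate 2 was above all 3 Scramble samples. After Si-FIBP#2 the log2 difference was -0.84 (limma adjusted p = 0.0457), a call that was lost under 10 of 17 alternatives (adjusted p 2.85e-05 to 0.151), among them leaving out any 1 sample other than Si-FIBP#2 replicate 2. Without that replicate it was -1.30 (adjusted p = 2.85e-05). After Si-FIBP#1 it was 0.62 (limma adjusted p = 0.125), while the adjusted p was 0.000604 without Si-FIBP#2 replicate 2, whose group shares the estimate of the spread in this fit, and 0.00137 with only the groups compared. It was not below 0.05 under the other 15 alternatives. Between Si-FIBP#2 and Si-FIBP#1 the ITGB1 difference was -1.46 (limma adjusted p = 0.0127), past 2-fold, as 0.294% of all genes tested were in that direction. That call was lost under 1 of 17 alternatives, and the difference was -1.91 without Si-FIBP#2 replicate 2.

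**Figure D5:**
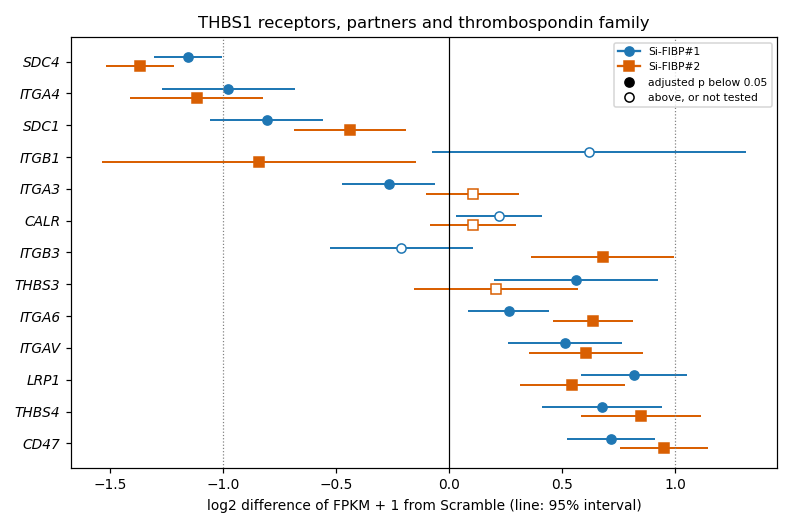
Difference from Scramble on the scale of log2(FPKM + 1) for the 13 tested genes of the thrombospondin family and the receptors and partners of THBS1 (horizontal axis; lines, 95% intervals; dotted lines, 2-fold; filled symbols, adjusted p below 0.05), ordered by the mean of both siRNAs. SDC4 (-1.16 and -1.37) is at the low end and CD47 (0.71 and 0.95) at the high end. ITGB3 passed the filter on low values only with the Si-FIBP#2 samples.

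Of the relatives of AXL and its ligands, PROS1 and MERTK, or 2 of 4 genes, rose while AXL fell, where 27.8% and 31.1% of all genes tested were higher with the first and second siRNA. PROS1 was past 2-fold with both, as 2.55% and 2.92% of all genes tested were in that direction. PROS1, which encodes protein S, a ligand of TYRO3 and MERTK, was at 6.56, 6.05 and 7.10 FPKM in Scramble, at 15.74, 17.58 and 17.38 FPKM after Si-FIBP#1, and at 19.57, 18.26 and 17.67 FPKM after Si-FIBP#2 (log2 differences 1.24 and 1.37, limma adjusted p = 2.59e-06 and 1.92e-06). MERTK, a receptor of the same family, was at 11.30, 10.75 and 11.42 FPKM in Scramble, at 17.45, 18.39 and 18.42 FPKM after Si-FIBP#1, and at 13.87, 19.27 and 15.17 FPKM after Si-FIBP#2 (0.65 and 0.48, limma adjusted p = 0.000712 and 0.00396). Between the siRNAs MERTK differed by -0.17 (limma adjusted p = 0.312), or by -0.30 without Si-FIBP#2 replicate 2 (adjusted p = 0.0175, the lowest of 17 alternatives, whose highest was 0.686). TYRO3, the other receptor, did not pass the test (-0.10 and 0.17, limma adjusted p = 0.621 and 0.397). GAS6, the ligand of AXL, did not pass it either (-0.05 and 0.07, limma adjusted p = 0.656 and 0.562). Of the other CCN family genes, CCN3 was the 1 that reached the filter, and it did not pass the test (-0.39 and -0.07, limma adjusted p = 0.092 and 0.752).

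The genes whose profile over the 9 samples was most like that of THBS1 were AHCYL2, TLCD3A, PPP2CB, EFHD2 and ID3, with Pearson correlations of log2(FPKM + 1) between 0.991 and 0.992. ID3, a helix-loop-helix inhibitor of transcription factors, was at 111.30, 97.75 and 87.73 FPKM in Scramble, at 64.10, 44.17 and 51.25 FPKM after Si-FIBP#1, and at 25.56, 21.74 and 21.67 FPKM after Si-FIBP#2, so its groups were in the same order as those of THBS1. With THBS1, CCN2 was at 0.97 (rank 52 of 14984 genes), CCN1 at 0.954 (rank 112) and YAP1 at 0.942 (rank 161). AMOTL2 was at 0.831 (rank 880), TEAD4 at 0.805 (rank 1081) and ANKRD1 at 0.803 (rank 1107). AXL was at 0.504, WWTR1 at 0.269 and TEAD1 at -0.291. The points of each correlation are the same 9 libraries, which fall into 3 groups, so the values describe the order of the groups.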

How the data were processed

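Poly(A)-selected, paired-end RNA-seq of 9 H1299 samples was used, 3 per group by the sample labels. For each sample the authors deposited FPKM per transcript, rounded to 2 decimals, for 229487 Ensembl transcripts among 244443 in all, the rest assembled from the reads. The unit was inferred from the values. HISAT2 and StringTie are named in the submitters' processing notes, without versions. The genome build, annotation and use of strand are not given in the sources used here.

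Transcript FPKM were summed per gene. The test took the 14985 genes that reached 1 FPKM in 3 or more samples. It used limma 3.58.1 (R 4.3.3) on log2(FPKM + 1) with a mean-variance trend, in 1 fit of all 9 samples without a replicate block, and p-values were adjusted over all genes tested by the Benjamini-Hochberg method. The adjusted p in the report come from this fit unless an alternative is named, and all are two-sided. Calls needed a fold change over 2 and an FDR below 0.05, the limits in the study's methods. FPKM are not counts, so no count test was run. In a simulation the fit was also checked.

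The members and lists were chosen with earlier results of these data known. The genes named were FIBP, the 10 genes, the 4 tested genes of each list with the largest absolute mean difference from Scramble, the 5 genes most correlated with THBS1 and its neighbours in rank. The estimate of depth used 8028 single-transcript genes, after 280 bases were taken off each length (the mean cosine, 1 for whole fragments, was 0.756 to 0.815), and carries no counting interval, so precision is given by the spread between samples. Positions are from GENCODE 29 (GRCh38) and promoters from RefSeq (GRCh38.p14), joined by gene symbol. Alternatives were a pseudocount of 0.1, no filter or one of 5 FPKM, TPM or median-ratio scaling, the compared groups only, Ensembl transcripts only, a replicate block, no fold limit and leaving out each sample. Python 3.11.15, numpy 2.4.6, pandas 2.3.3 and matplotlib 3.10.9 were used.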

Additional observations from a re-analysis of the deposited data

How the results depend on the processing

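Precision is limited by 3 samples per group, by depth known only as an estimate and, for ANKRD1 and IGFBP3, by levels near the filter. With a pseudocount of 0.1, 1498 genes were called after Si-FIBP#1, 1411 after Si-FIBP#2 and 172 between the siRNAs, instead of 848, 757 and 84. Without the fold limit these were 7146, 7309 and 2304. When samples were left out singly, the calls were 840 to 882 after Si-FIBP#1, 734 to 836 after Si-FIBP#2 and 73 to 128 between the siRNAs. The 19 signature genes tested other than ANKRD1 and IGFBP3 include CCN1, CCN2, AMOTL2 and AXL, which were chosen with earlier results known. With samples left out singly, 7 to 10 of the 19 were lower after Si-FIBP#1 and 9 to 10 after Si-FIBP#2, instead of 9 with each. With all samples, 5 of the 15 signature genes outside the 10 genes described were lower with each siRNA, where 19.9% and 17.7% of all genes tested were lower. Among the fits with a sample left out, the largest count between the siRNAs was that without Si-FIBP#2 replicate 2.

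Deviations of same-numbered samples correlated at -0.057 to 0.103 and of other samples of different groups at -0.142 to 0.049. Between Si-FIBP#1 and Si-FIBP#2 these were 0.046 to 0.097 and -0.059 to 0.008. Such weak values do not settle whether the replicate numbers pair the samples. Under the replicate block, YAP1 after Si-FIBP#1 no longer passed (log2 difference -0.14, limma adjusted p = 0.0589), while no other gene that the report gives with a limma adjusted p changed its call, and 853, 760 and 88 genes were called. CCN1 and CCN2 were called lower against Scramble under all 17 alternatives other than the one without the fold limit, which was run on counts only.

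The sign turned only where differences were near 0 and not past the threshold. For TEAD1 after Si-FIBP#1 it was -0.0081 as TPM, -0.0193 by the median ratio and -0.0269 with Ensembl transcripts only, and after Si-FIBP#2 -0.0485 and -0.0302 under the last 2. Between the siRNAs it was -0.0292 and -0.0033 under those 2. GAS6 after Si-FIBP#2 was -0.0245 by the median ratio, and IGFBP3 between the siRNAs 0.0032 as TPM. With samples left out, the ranges that crossed 0 were -0.0043 to 0.0718 for TEAD1 after Si-FIBP#1 and -0.029 to 0.0548 between the siRNAs, -0.0525 to 0.172 for ANKRD1, -0.1034 to 0.2599 for FIBP and -0.0288 to 0.0241 for IGFBP3 between the siRNAs, -0.2109 to 0.0693 for CCN3 after Si-FIBP#2, -0.0858 to 7e-04 for GAS6 after Si-FIBP#1 and -0.0151 to 0.1149 after Si-FIBP#2, and -0.2766 to 0.0751 for TYRO3 after Si-FIBP#1. The cause was not tested.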
